A study of Mus musculus with 6 samples.

Results

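Genes of the proteasome were followed in RNA sequencing of mouse B cells given the transcription factor Sox2. They were taken from the count table by symbol: a name starting with Psma, Psmb, Psmc, Psmd or Psme followed by a digit. This gave 50 of the table's 37620 rows, with 48 distinct symbols. Of these rows, 42 had at least 10 counts summed over the 6 libraries. Psmc3ip and Psme2b-ps are kept apart. Psmc3ip encodes a recombination factor and only shares the name of a subunit. Psme2b-ps carries the symbol of a pseudogene in the count table, while GENCODE M21 lists it as Psme2b, a protein-coding gene. The remaining 40 genes comprise 14 of the core particle, 20 of the regulatory particle with its assembly factors, 2 of the immunoproteasome and the 4 Psme activators. The 8 rows under 10 counts were Psma8, Psmb11, both rows named Psmb9, the second row named Psmd14, Psmb5-ps, Psmb6-ps and Psmb7-ps2.

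Both groups were splenic B cells of C57Bl/6 mice aged 4 months, held in culture with 1 µg/ml of anti-CD40 and 12.5 µg/ml of IL-4. The vector is a retrovirus, whose promoter was not given in the sources used here. Infection was done at 24 h and repeated at 48 h, and cells carrying the mCherry reporter were sorted at 96 h. The control group received pMIR (n = 3 libraries), and the other received the same vector with Sox2, pMIR-Sox2 (n = 3). The labels do not say whether libraries came from separate mice, so p-values measure only the spread between these libraries. Gene counts ran from 17153805 to 27692437 per library. Sox2 itself was read at 0.334 to 1.78 CPM (counts scaled for library size) in pMIR and at 624 to 989 CPM in pMIR-Sox2, lowest in replicate 3. The B cell markers Cd79a, Cd79b, Ms4a1, Pax5, Cd22, Blk and Ighm were read in each library. Of these, Cd79b, Ms4a1, Cd22, Blk and Ighm fell, Pax5 rose and Cd79a did not pass. Cd79b, for example, was at 686 to 903 CPM in pMIR and at 269 to 393 CPM in pMIR-Sox2. The T cell receptor genes Cd3d, Cd3e and Cd3g were at 0.238 CPM or less in each library.

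The proteasome is the main protease of the cytosol and nucleus and degrades proteins tagged with ubiquitin. Its core particle is a barrel of alpha rings (Psma) and beta rings (Psmb), with the cutting sites inside the beta rings. A regulatory particle caps the barrel: its ATPases (Psmc) unfold the substrate, and its other subunits (Psmd) bind and remove ubiquitin. Lymphocytes also express the immunoproteasome subunits Psmb8, Psmb9 and Psmb10, which replace the constitutive catalytic subunits and favour peptides suited to MHC class I. Psme proteins are alternative caps that work without ubiquitin.

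Across the set, Sox2 went with a rise of 1 activator gene and with smaller or no measured changes elsewhere. Psme4 was 3.98-fold higher in pMIR-Sox2, and the other 39 genes had log2 fold changes between −0.66 and 0.55. By edgeR's quasi-likelihood test with Benjamini-Hochberg adjustment over all 12899 genes tested (threshold 0.05), 3 of the 40 rose, 9 fell and 28 did not pass. In this fit, which did not pair libraries, 23.2% of all genes tested other than Sox2 were called higher and 20% lower. The share of proteasome genes that fell (22.5%) was thus close to that of all genes, and the share that rose (7.5%) was below it. With the replicate block, which compares libraries of the same replicate number, Psmc4, Psmd3 and Psme2 also fell. The share of all genes called with that block is not given here. The median log2 fold change was −0.18 over the 40 genes and −0.02 over all genes. Estimates lay within 0.5 of no change on the log2 scale for 36 of the 40 genes, against 61% of all genes and 70.2% of genes at or above the lowest mean level among these 40. In bulk RNA, fewer cells of a type and less RNA per cell cannot be told apart.

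**Figure D1:**
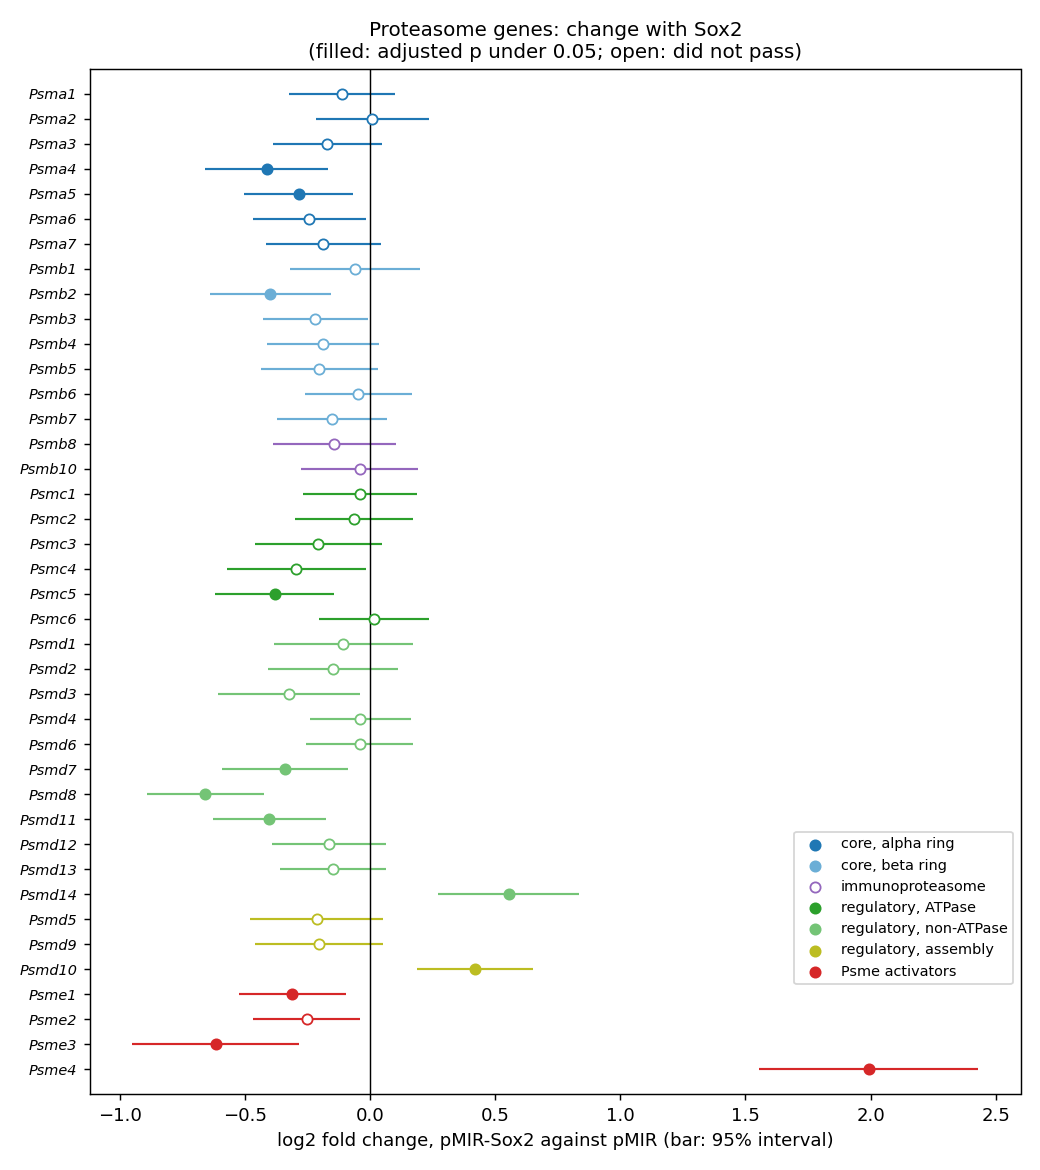
Log2 fold change of pMIR-Sox2 against pMIR (x axis) for the 40 proteasome genes (y axis), with bars for the 95% interval and filled points for an adjusted p under 0.05. Psme4 lies at 1.99, apart from the other 39 genes between −0.66 and 0.55, and 35 of the 40 points lie below 0 (28 of 40 when libraries are scaled by their totals only).

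Most estimates shared a direction. In 35 of 40 genes the estimate was below 0, against 51.3% of all genes tested and 58% of genes at or above the lowest mean level among these 40, and in 21 of 40 each pMIR-Sox2 library lay below each pMIR library (27.6% of all genes, and 1999 of the 5715 genes at or above that level). Each pMIR-Sox2 library lay above each pMIR library in the 3 genes that rose (28.9% of all genes). Scaling by library totals only moved the median of the 40 genes to −0.10, that of all genes to 0.06, and left 28 of 40 estimates below 0. The 3 rises and the falls of Psmd8, Psmd11 and Psme3 passed under each of 12 alternatives. Among the 28 genes that did not pass, 95% intervals of the log2 fold change ran no lower than −0.61 (Psmd3) and no higher than 0.24 (Psmc6).

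Libraries within a group also moved together. In pMIR, replicate 1 was the highest in 13 of 14 core genes and in 18 of 20 genes of the regulatory particle. In pMIR-Sox2, replicate 3 was the highest in 13 of 14 and 13 of 20. Like counts over all genes were not made, so this order may not be particular to proteasome genes. Summed over the core genes, the level was 2729, 2550 and 2505 CPM in pMIR replicates 1 to 3 and 2194, 2256 and 2442 CPM in pMIR-Sox2 replicates 1 to 3. Over the regulatory particle it was 3542, 3150 and 3246 CPM in pMIR and 2983, 2801 and 3081 CPM in pMIR-Sox2. For both sums each pMIR-Sox2 library lay below each pMIR library. Without pMIR replicate 1, 3 of the 40 genes fell in place of 9. Over all genes, leaving out each library in turn gave 1783 to 2885 falls, against 2577 with all libraries.

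**Figure D2:**
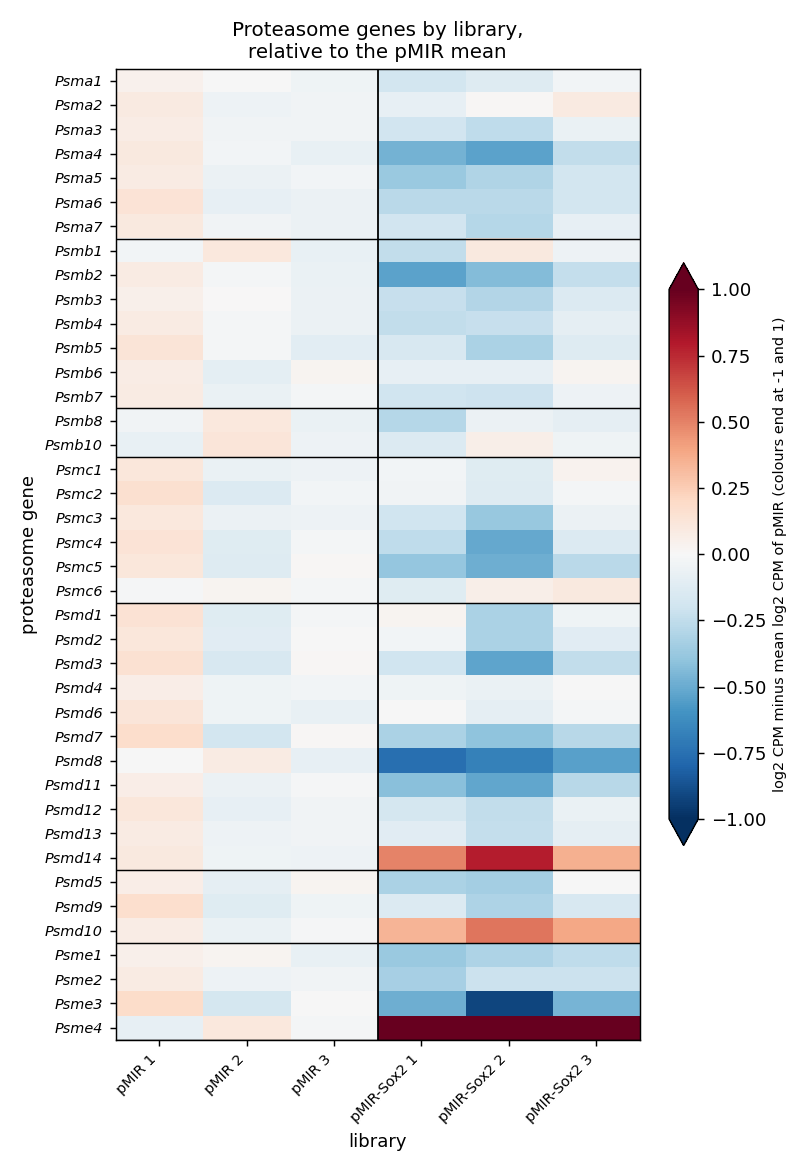
Log2 CPM of each proteasome gene (rows) in each library (columns) minus the mean log2 CPM of the 3 pMIR libraries, with colours that end at −1 and 1. Psme4, Psmd14 and Psmd10 are higher in each pMIR-Sox2 library, most other genes are slightly lower, and within pMIR-Sox2 replicate 3 is the highest in 13 of 14 core rows.

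The promoters of the 3 genes that rose and of Psmd8, the gene with the largest fall, are shown for the bases just before the gene, 5′ to 3′. Sequences are from RefSeq on GRCm38.p6, ending before the more upstream of the RefSeq and GENCODE starts. Capitals mark any match on either strand to the 4 motifs named after them.
Psme4, chr11:30771576-30771725, plus strand: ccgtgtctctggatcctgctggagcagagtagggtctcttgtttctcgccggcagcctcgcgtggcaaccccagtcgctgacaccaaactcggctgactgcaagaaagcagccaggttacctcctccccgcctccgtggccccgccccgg
Psmd14, chr2:61711544-61711693, plus strand: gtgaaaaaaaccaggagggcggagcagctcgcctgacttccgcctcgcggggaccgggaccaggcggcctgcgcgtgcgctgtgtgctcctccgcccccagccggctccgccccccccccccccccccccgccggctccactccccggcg
Psmd10, chrX:140956729-140956878, minus strand: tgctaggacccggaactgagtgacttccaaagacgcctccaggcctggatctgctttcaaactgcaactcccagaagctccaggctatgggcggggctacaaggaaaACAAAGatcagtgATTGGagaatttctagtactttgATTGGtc
Psmd8, chr7:29180702-29180851, minus strand: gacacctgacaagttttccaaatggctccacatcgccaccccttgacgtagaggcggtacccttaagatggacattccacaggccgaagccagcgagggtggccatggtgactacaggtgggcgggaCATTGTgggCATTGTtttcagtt

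Psme4 and Psmd14 held none of these motifs in the 150 bases shown, whose GC content was 65.3% and 78%. Psmd10 held 2 CCAAT boxes and 1 SOX site, and Psmd8 held 2 SOX sites. A CCAAT box of Psmd14 lay within the 250 bases searched but outside the stretch shown. Over the 250 bases before the RefSeq start, 34 of the 40 genes had a sequence; Psmb1, Psmb2, Psmb7, Psmc3, Psmd3 and Psmd7 had none in the table used. The antioxidant response element (TGACNNNGC), the site of the proteasome gene activator Nfe2l1, occurred in 5 of 34 (Psmb5, Psmb6, Psmc6, Psmd9 and Psmd12) and in 10.1% of all 27025 promoters. The CCAAT box (CCAAT) occurred in 12 of 34 and in 34.5% of all. The interferon-stimulated response element (GAAA, any 2 bases, GAAA) occurred in 3 of 34 (Psmb3, Psmd4 and Psmd9) and in 3.04% of all. A SOX site (ACAATG or ACAAAG) occurred in 3 of 34 (Psmd5, Psmd8 and Psmd10) and in 25.5% of all. These are matches of letters, and no binding was measured.

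The 4 activator genes went different ways, with 1 rise, 2 falls and 1 that did not pass (of all genes, 23.2% rose and 20% fell). Psme4 encodes PA200, a large cap of the core particle known for the breakdown of acetylated histones. It was read at 133, 151 and 138 CPM in pMIR replicates 1 to 3 and at 593, 695 and 390 CPM in pMIR-Sox2 replicates 1 to 3. The groups were far apart, and the spread within pMIR-Sox2 was wide (141 ± 9.51 against 560 ± 155 CPM, SD, n = 3 each). Its log2 fold change was 1.99 ± 0.19 (SE, 95% interval 1.55 to 2.43, edgeR adjusted p = 0.000101). It was 1.81 or more under each of the 12 alternatives. Within pMIR-Sox2, replicate 3 was the lowest for both Psme4 and Sox2, while replicate 2 was the highest for Psme4 and replicate 1 for Sox2. Psme4 lies at chr11:30771726-30880361 on GRCm38, and its exons overlap no other annotated gene.

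Psme3, which encodes PA28-gamma, the nuclear activator, fell. It was read at 322, 251 and 283 CPM in pMIR and at 202, 150 and 206 CPM in pMIR-Sox2, without overlap (−0.62 ± 0.15, edgeR adjusted p = 0.00874). Psme1 and Psme2 encode the paired subunits of PA28, the activator induced by interferon. Psme1 was read at 281, 276 and 258 CPM in pMIR and at 210, 220 and 227 CPM in pMIR-Sox2. It fell (−0.31 ± 0.10, edgeR adjusted p = 0.0258), but missed the threshold under 7 of 12 alternatives, with adjusted p up to 0.0928. Psme2 was read at 200, 182 and 185 CPM in pMIR and at 150, 163 and 163 CPM in pMIR-Sox2 (−0.25 ± 0.10, edgeR adjusted p = 0.0569). Both PA28 genes were thus lower in each pMIR-Sox2 library by a like amount. With the replicate block, which compares libraries of the same replicate number, Psme2 passed (edgeR adjusted p = 0.0397). Reads of Psme2 and of its near copy Psme2b-ps (log2 fold change −0.26, edgeR adjusted p = 0.152) may be split between them.

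**Figure D3:**
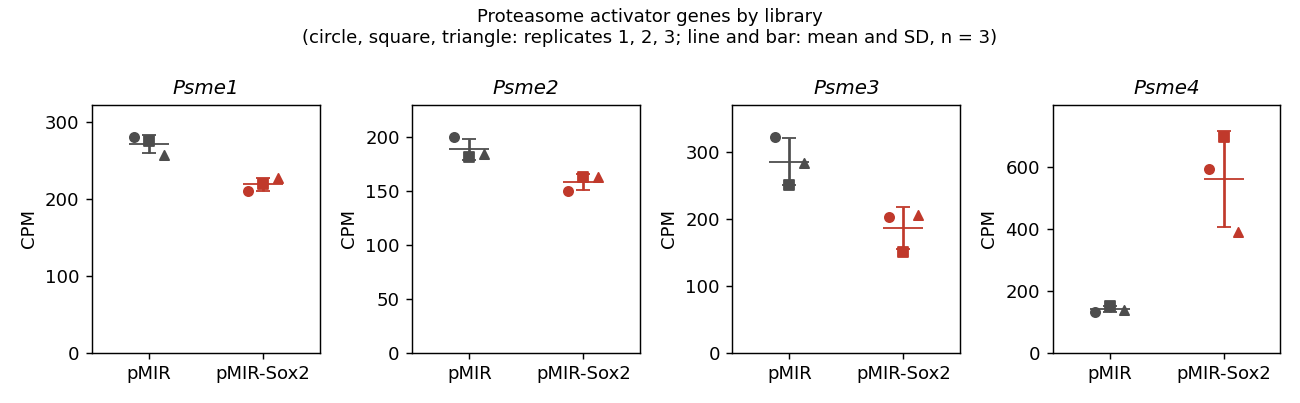
CPM (y axis, from 0) of the 4 activator genes in the 3 pMIR and 3 pMIR-Sox2 libraries, with lines and bars for the mean and SD. Psme4 rises from 133 to 151 CPM in pMIR to 390 to 695 CPM in pMIR-Sox2, and Psme1, Psme2 and Psme3 are lower in each pMIR-Sox2 library than in each pMIR library.

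Set per length, Psme4 drew closer to the other activators. In CPM per kilobase of the principal transcript, Psme4 was the lowest of the 4 in pMIR at 21.7 ± 1.47, against 244 ± 10.8 for Psme1, 196 ± 10.3 for Psme2 and 107 ± 13.3 for Psme3 (SD, n = 3). In pMIR-Sox2 it reached 86.2 ± 23.9, beside 69.7 ± 11.7 for Psme3, with overlapping libraries. Psme4 made up 3.39%, 4.20% and 3.86% of the summed per-length level of the 4 genes in pMIR replicates 1 to 3. The share was 17.8%, 20.2% and 11.8% in pMIR-Sox2. Psme1 and Psme2 remained the highest of the 4 by this measure in all 6 libraries.

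Markers of other cell types were read beside this rise. Of 10 myeloid symbols listed, 9 were in the table, 4 passed the filter and 3 of them rose. Emr1 rose from 18.6 to 27.4 CPM (means) and Itgam from 0.558 ± 0.0718 to 3.79 ± 1.02 CPM (2.76, edgeR adjusted p = 0.000149). Lyz2 went from 1, 0 and 1 counts to 17, 10 and 11 counts. Csf1r, also tested, had an estimate below 0 and did not pass (−0.62, edgeR adjusted p = 0.201). Cd14, Fcgr1 and Ly6g were at 0.184 CPM or less in each library. The summed level of the list was 18.5 to 21.9 CPM in pMIR and 29.8 to 36.5 CPM in pMIR-Sox2, while S100a8 and S100a9 were at 0 in each library. Of 5 dendritic cell markers, Flt3 and Zbtb46 fell, and the list summed to 32.9 to 42.6 CPM in pMIR and 10.5 to 13.9 CPM in pMIR-Sox2. The 8 T cell markers summed to 222 to 284 CPM in pMIR and 328 to 398 CPM in pMIR-Sox2, nearly all of it Thy1 and Lck. Of the 3 tested, Thy1 rose (0.64, edgeR adjusted p = 0.00782). Lck (−0.31, edgeR adjusted p = 0.0758) and Cd247 (0.90, edgeR adjusted p = 0.055) did not pass. The 5 plasma cell markers summed to 887 to 1085 CPM in pMIR and 493 to 574 CPM in pMIR-Sox2, as Irf4 (−1.72) and Xbp1 (−0.42) fell and Prdm1 rose (1.19). Xbp1 only just passed (edgeR adjusted p = 0.04997), and its libraries overlapped between the groups. Natural killer markers summed to 0.24 to 0.627 CPM in pMIR and 0.541 to 1.10 CPM in pMIR-Sox2, and erythroid and platelet markers to at most 2.22 CPM. The part of these markers in the proteasome values was not tested.

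In the regulatory particle, 2 of 20 genes rose (10%), 4 fell (20%) and 14 did not pass, with a median of −0.16. For all genes tested other than Sox2 the shares were 23.2% higher and 20% lower. The strongest rise was that of Psmd14, which encodes Rpn11, the deubiquitinase that strips ubiquitin chains from substrates before they enter the barrel. It was read at 160, 145 and 145 CPM in pMIR and at 211, 258 and 192 CPM in pMIR-Sox2. Each pMIR-Sox2 library lay above each pMIR library (0.55 ± 0.12, edgeR adjusted p = 0.00661). Psmd10 encodes gankyrin, a chaperone of ATPase ring assembly. It was read at 33.2, 30.2 and 31.4 CPM in pMIR and at 39.9, 45.7 and 41.3 CPM in pMIR-Sox2, also without overlap (0.42 ± 0.10, edgeR adjusted p = 0.0096). The other chaperones of this ring, Psmd5 and Psmd9, did not pass (−0.21 and −0.20).

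Psmd8 and Psmd11 fell. Psmd8 encodes Rpn12, a scaffold subunit of the lid, the part of the regulatory particle that holds Psmd14. It was read at 329, 349 and 311 CPM in pMIR and at 195, 206 and 226 CPM in pMIR-Sox2. This was the largest fall among the 40 genes (−0.66 ± 0.10, edgeR adjusted p = 0.0011), and the groups did not overlap. Psmd11, which encodes the lid scaffold Rpn6, was read at 179, 164 and 169 CPM in pMIR and at 127, 119 and 141 CPM in pMIR-Sox2 (−0.40 ± 0.10, edgeR adjusted p = 0.0106). Psmd7, which encodes Rpn8, the partner of Rpn11 in the lid, fell from 136 ± 16.9 to 108 ± 4.74 CPM (−0.34, edgeR adjusted p = 0.0345). Psmd7 missed the threshold under 5 of 12 alternatives. Genes of the lid thus moved in opposite directions, as Psmd14 rose and Psmd7, Psmd8 and Psmd11 fell.

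The other Psmd genes did not pass. Psmd1 and Psmd2, whose large proteins form the base and dock ubiquitin carriers, had log2 fold changes of −0.11 and −0.15. The ubiquitin receptor Psmd4 was at 151 ± 6.27 CPM in pMIR and 147 ± 2.96 CPM in pMIR-Sox2 (−0.04, 95% interval −0.24 to 0.16). The lid genes Psmd6, Psmd12 and Psmd13 had −0.04, −0.16 and −0.15. Psmd3, also of the lid, had −0.32 (edgeR adjusted p = 0.0625) and passed with the replicate block (edgeR adjusted p = 0.00865).

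Of the 6 ATPases that form the unfolding ring, 1 fell (16.7%, against 20% of all genes) and 5 did not pass. Psmc5, which encodes Rpt6, was read at 170, 144 and 159 CPM in pMIR and at 121, 112 and 131 CPM in pMIR-Sox2 (−0.38 ± 0.11, edgeR adjusted p = 0.0167). The groups did not overlap. Leaving out pMIR replicate 1 gave an edgeR adjusted p of 0.0735, leaving out pMIR replicate 3 gave 0.058, and leaving out pMIR-Sox2 replicate 2 gave 0.0508. Psmc4 had −0.29 (edgeR adjusted p = 0.0797) and passed with the replicate block (edgeR adjusted p = 0.0172). Psmc3 had −0.21, and Psmc1, Psmc2 and Psmc6 had −0.04, −0.06 and 0.02. Although the ATPases occupy the ring in equal number, their estimates ran from −0.38 to 0.02.

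**Figure D4:**
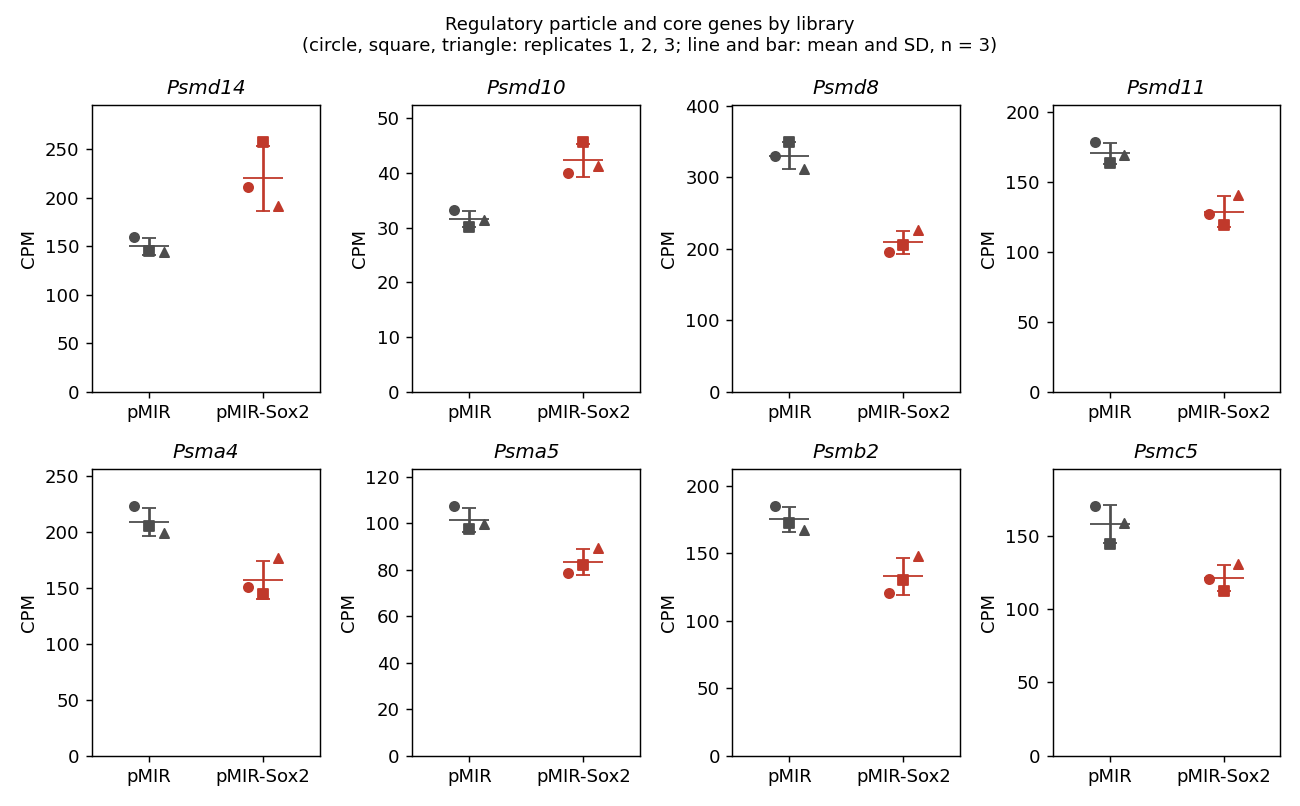
CPM (y axis, from 0) of 4 regulatory particle genes of the Psmd group, of Psmc5 and of the 3 core genes that fell, by library, with lines and bars for the mean and SD. Psmd14 and Psmd10 are higher and the other 6 genes lower in each pMIR-Sox2 library than in each pMIR library.

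In the core particle, 3 of 14 genes fell (21.4%), 0 rose and 11 did not pass, with a median of −0.19. The share that fell was close to the 20% of all genes, while 23.2% of all genes rose. At an unadjusted p under 0.05 edgeR gave 0 higher core genes, and the DESeq2 Wald test and limma-voom called 0 higher. Psma4 and Psma5 encode alpha ring subunits, which form the gate of the barrel. Psma4 was read at 223, 205 and 199 CPM in pMIR and at 151, 144 and 176 CPM in pMIR-Sox2 (−0.41 ± 0.11, edgeR adjusted p = 0.014, and 0.0606 without pMIR replicate 1). Psma5 was read at 108, 97.4 and 99.7 CPM in pMIR and at 78.6, 82.2 and 89.4 CPM in pMIR-Sox2 (−0.28 ± 0.10, edgeR adjusted p = 0.0396). The groups overlapped for neither gene, but Psma5 missed the threshold under 7 of 12 alternatives, with adjusted p up to 0.138. Psmb2, a beta ring subunit without a cutting site, was read at 185, 173 and 167 CPM in pMIR and at 121, 130 and 148 CPM in pMIR-Sox2 (−0.40 ± 0.11, edgeR adjusted p = 0.0147). Its edgeR adjusted p rose to 0.062 when pMIR replicate 1 was left out, and to 0.0536 when pMIR-Sox2 replicate 1 was. Without pMIR replicate 1, 0 core genes fell, and without pMIR-Sox2 replicate 1, 1 did.

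The other alpha genes were closer to no change. Psma2 had the highest estimate of the core at 0.01 (95% interval −0.22 to 0.23), with 248 ± 13.7 CPM in pMIR and 249 ± 14.9 CPM in pMIR-Sox2. Psma1, Psma3, Psma6 and Psma7 had −0.11, −0.17, −0.24 and −0.19. The structural beta genes Psmb1, Psmb3 and Psmb4 had −0.06, −0.22 and −0.19. Per length, core levels in pMIR ran from 44.0 ± 1.96 CPM per kilobase (Psma3) to 260 ± 15.5 (Psma7), although each subunit occurs in the barrel in equal number. The order rests on the transcript length chosen from GENCODE, which for Psma3 is 2.85 kb. Psma8, the alpha subunit of male germ cells, had 4 counts in all. Psmb11, the subunit of the thymus, was listed at 0, which allows up to 0.111 to 0.174 CPM in a library.

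Of the 5 catalytic subunits measured, 0 passed edgeR's test, 0 had an unadjusted p under 0.05, and DESeq2 and limma-voom also called 0. Psmb5, the chymotrypsin-like subunit, was read at 93.5, 84.6 and 79.5 CPM in pMIR and at 76.5, 68.9 and 78.5 CPM in pMIR-Sox2 (−0.20 ± 0.10, 95% interval −0.44 to 0.03). Psmb8, which replaces it in the immunoproteasome, was read at 333, 368 and 327 CPM in pMIR and at 280, 329 and 322 CPM in pMIR-Sox2 (−0.14 ± 0.11, 95% interval −0.39 to 0.10). The groups overlapped for Psmb8, where pMIR-Sox2 replicate 1 was low. Psmb7, the trypsin-like subunit, was read at 205, 185 and 190 CPM in pMIR and at 168, 167 and 187 CPM in pMIR-Sox2 (−0.15 ± 0.10). Psmb10, its counterpart in the immunoproteasome, was read at 54.9, 62.9 and 55.6 CPM in pMIR and at 52.5, 60.0 and 56.0 CPM in pMIR-Sox2 (−0.04 ± 0.10, 95% interval −0.27 to 0.19). For these genes the interval of the difference held 0. Psmb6, the caspase-like subunit, was read at 153, 136 and 148 CPM in pMIR and at 137, 137 and 148 CPM in pMIR-Sox2 (−0.05 ± 0.10).

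Psmb9, which replaces Psmb6, has no usable value in this table. Its symbol stands on 2 rows, with 0 counts and 7 counts over the 6 libraries, and neither identifier is in GENCODE M21. Its neighbours Psmb8 and Tap1 were read at 280 CPM or more in each library. The low count can therefore not be read as absence of Psmb9. Reads that the counting called ambiguous made up 0.283 to 0.307% of a library, and whether Psmb9 is among them was not tested.

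The level of each immunoproteasome subunit relative to its constitutive counterpart was compared within libraries. Per kilobase, Psmb8 stood at 1.97, 2.40 and 2.27 times Psmb5 in pMIR and at 2.02, 2.64 and 2.26 times in pMIR-Sox2. Psmb10 stood at 0.237, 0.301 and 0.259 times Psmb7 in pMIR and at 0.276, 0.318 and 0.265 times in pMIR-Sox2, which was higher in 3 of 3 same-numbered pairs. The log2 ratio differed between groups by 0.06 for Psmb8 and Psmb5 (two-sided exact permutation p = 0.8) and by 0.11 for Psmb10 and Psmb7 (exact permutation p = 0.4). Both were 0.8 when adjusted over the 2 pairs, and 0.1 is the smallest p that 3 libraries against 3 allow. Psmb8 was above its counterpart and Psmb10 below it in each of the 6 libraries.

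**Figure D5:**
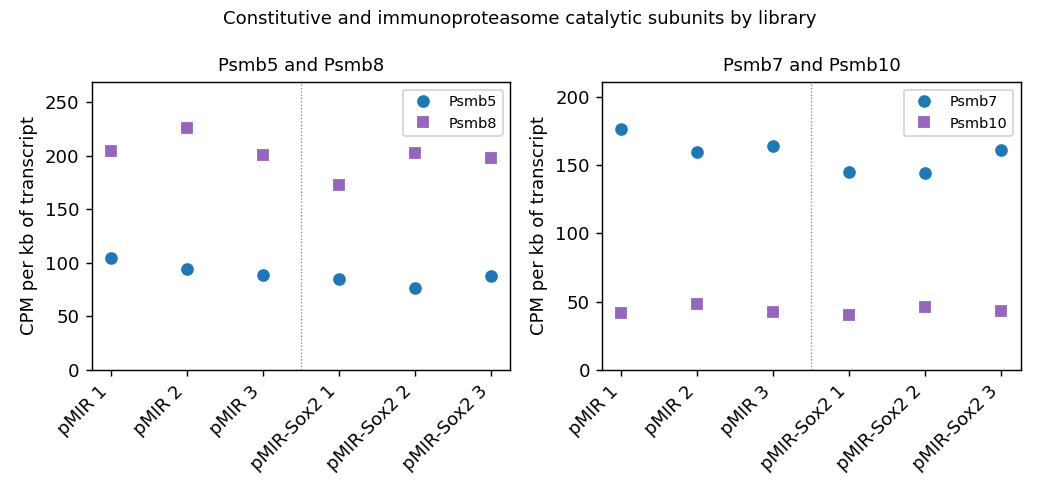
CPM per kilobase of principal transcript (y axis, from 0) of Psmb5 with Psmb8 and of Psmb7 with Psmb10 in each library (x axis). Psmb8 lies above Psmb5 and Psmb10 below Psmb7 in all 6 libraries, and the pMIR and pMIR-Sox2 libraries overlap for both immunoproteasome genes.

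Of 18 tested genes for other parts, assembly factors and partners of the proteasome, 3 rose, 4 fell and 11 did not pass (median −0.10). Of all genes tested other than Sox2, 23.2% rose and 20% fell. The 4 that fell all serve assembly of the core. Psmg2, a chaperone of the alpha ring, was read at 55.1, 44.3 and 50.7 CPM in pMIR and at 27.3, 24.5 and 36.8 CPM in pMIR-Sox2 (−0.76 ± 0.16, edgeR adjusted p = 0.0046), and its partner Psmg1 fell from 40.5 ± 5.31 to 28.8 ± 2.73 CPM (−0.49). Pomp, which guides the beta ring, fell from 150 ± 10.6 to 120 ± 8.90 CPM (−0.33), and Psmg4 by 0.43 on the log2 scale. Psmg3, the partner of Psmg4, did not pass (−0.37, edgeR adjusted p = 0.073). Psmg1 missed the threshold under 2 of 12 alternatives, Psmg4 under 5 and Pomp under 6. Zfand5, an activator that binds the proteasome, rose from 100 ± 4.57 to 149 ± 3.82 CPM (0.57 ± 0.09, edgeR adjusted p = 0.00109). Ipo9, an importin that carries proteasomes into the nucleus, rose from 131 ± 9.50 to 185 ± 22.1 CPM (0.49). Shfm1, which encodes the small lid subunit Sem1, rose from 132 ± 8.51 to 175 ± 24.6 CPM (0.41) and missed the threshold under 3 alternatives. The ubiquitin receptor Adrm1 (−0.24) and the deubiquitinases Uchl5 (−0.30) and Usp14 (0.05) did not pass.

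Of 23 tested genes for regulators of proteasome transcription and the oxidative stress response, 4 rose, 7 fell and 12 did not pass (median −0.03). The shares over all genes were 23.2% higher and 20% lower. Nfe2l1, the factor that raises subunit transcription when proteasome activity is short, fell from 142 ± 11.4 to 94.3 ± 7.06 CPM (−0.59 ± 0.10, edgeR adjusted p = 0.00194). Ddi2, the protease that activates it, fell by 0.27 on the log2 scale (edgeR adjusted p = 0.0405). Ngly1, of the same list, had an estimate above 0 and did not pass (0.29, edgeR adjusted p = 0.0526). Nploc4 (−0.27), Ufd1l (−0.09) and Vcp (−0.03) did not pass either. Nfe2l2, a relative of Nfe2l1 and the factor of the oxidative stress response, rose from 36.7 ± 5.73 to 50.5 ± 1.11 CPM (0.46). It missed the threshold without pMIR replicate 1. Bach1, a repressor at the same sites, rose from 13.6 ± 0.899 to 27.3 ± 1.78 CPM (1.00 ± 0.12, edgeR adjusted p = 0.000238). Nfe2l3 had 0, 2 and 1 counts in pMIR and 19, 9 and 11 in pMIR-Sox2. Of the subunits of the CCAAT-binding factor, Nfya fell from 118 ± 8.66 to 60.3 ± 18.1 CPM (−0.97), and Nfyc did not pass (0.18). Nfyb rose by 0.34, a call that was lost without pMIR replicate 2 or pMIR replicate 3, with edgeR adjusted p up to 0.0803. Gclc (−0.61) and Hsf1 (−0.55) fell, and Hsf1 missed the threshold without pMIR replicate 1 (edgeR adjusted p = 0.0511).

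Of 27 tested ubiquitin genes, conjugating enzymes and shuttle factors, 6 rose, 7 fell and 14 did not pass (median −0.01). Over all genes, 23.2% rose and 20% fell. Ube2j1, the conjugating enzyme of the endoplasmic reticulum, rose from 123 ± 8.73 to 203 ± 16.3 CPM (0.73 ± 0.10, edgeR adjusted p = 0.000674). Ube2d1 rose from 28.7 ± 2.24 to 63.3 ± 16.5 CPM (1.14), while its close relative Ube2d2 fell from 164 ± 14.0 to 117 ± 7.52 CPM (−0.49). The shuttle factors that carry ubiquitinated proteins to the proteasome also went both ways, Ubqln2 by 0.64 and Ubqln4 by −0.45. Ube2g2 fell (−0.47), and Uba1, the enzyme that starts ubiquitin transfer, rose by 0.33 on the log2 scale, a call that ended under 4 of 12 alternatives.

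Of 21 tested genes of MHC class I presentation and interferon signalling, 2 rose, 7 fell and 12 did not pass (median −0.21). Among all genes, 23.2% rose and 20% fell. Calr, Canx and Pdia3, chaperones of the peptide loading complex and of other glycoproteins, fell, Calr from 1746 ± 118 to 886 ± 165 CPM (−0.98 ± 0.15, edgeR adjusted p = 0.000987), Canx by 0.62 and Pdia3 by 0.51 on the log2 scale. Tapbp, which encodes tapasin, fell from 384 ± 41.4 to 272 ± 16.0 CPM (−0.50). The transporter gene Tap2 fell (−0.39), and its partner Tap1 did not pass (−0.26, edgeR adjusted p = 0.0918). Stat2 (0.77) and Irf1 (0.31) rose, with the call for Irf1 lost under 4 of 12 alternatives. Among class I heavy chain genes, H2-T23 fell (−0.73, edgeR adjusted p = 0.0124), and H2-K1 (−0.18) and H2-D1 (−0.06) did not pass, nor did B2m (0.14).

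Outside the 40 genes, Psmc3ip fell, from 14.5 to 18.9 CPM in the pMIR libraries to 8.22 to 12.2 CPM in the pMIR-Sox2 libraries (−0.75 ± 0.18, edgeR adjusted p = 0.0082). Its product assists strand exchange in recombination and has no known part in the proteasome. Of the exons of Psmc3ip, 21.2% overlap those of Mlx on the opposite strand, and the strand setting of the counting was not given in the sources used here. Among the 40 proteasome genes, of those that passed, Psma4 and Psma5 share 4.81% and 4.54% of their exons with a gene on the opposite strand, and Psme1 0.634%.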

How the data were processed

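Total RNA was sequenced in 6 libraries. The genome build was mm9, and the tools named were HTSeq 0.6.1p1, TopHat2 2.0.11, Trimmomatic 0.32, SAMtools 0.1.19 and Bowtie2 2.2.2, per the submitters' processing notes, which here carry neither role nor order. The authors deposited raw counts per Ensembl gene, and the 5 closing lines that name no gene (46.8 to 48.1% of a library) were left out. Titles gave each library its group and number.

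Genes were tested in R 4.3.3 with edgeR 4.0.16: filterByExpr with the group, TMM scaling, and a robust quasi-likelihood fit of pMIR-Sox2 against pMIR. Benjamini-Hochberg adjustment covered the 12899 genes tested, with a threshold of 0.05. CPM are counts over the effective library size, a relative measure. SE is the size of the log2 fold change over the square root of F. The test was tested on simulated data. Depth, a common biological variation of 14.4% and n = 3 set the precision, and intervals and limits for 0 counts cover counting error or library spread only.

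Same-numbered libraries varied together, as deviations from group means correlated at 0.242, 0.359 and 0.189 within same-numbered pairs. The main fit did not use this pairing, and the replicate block did. The titles and descriptions give the shared numbers. Replicates differed beyond counting noise (mean chi-square per gene 13.4 to 31.5).

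Alternatives were DESeq2 size factors, library totals only, no filter, the DESeq2 1.42.0 Wald test, limma-voom (limma 3.58.1), the replicate block and leaving out each library. The planned Psmb9/Psmb6 ratio could not be computed. Lengths (principal transcripts), overlaps and coordinates are from GENCODE M21 on GRCm38, another build than mm9, which held 32897 of 37620 identifiers. Members, gene lists and tests were chosen with earlier results of these data known. Full values were given for the catalytic pairs, each Psme gene and up to 2 genes per direction and family with the smallest adjusted p. From each other list up to 4 per direction were named, except for items that are not reported here. Psmd7, Ddi2, Tap2, H2-T23 and genes given as not passing were named after their values were seen.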

Additional observations from a re-analysis of the deposited data

How the results depend on the processing

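Over 12 alternatives for each of the 40 genes, 429 of 480 values kept their direction and side of the threshold, 25 missed it, 7 newly passed it and 19 changed sign, none of them in a gene that passed. The cause of these changes was not tested. The number that rose was 3 in each alternative, and the number that fell was 6 with library totals only and 12 with the replicate block. Like shares over all genes are not given here for those settings, so these numbers may follow the number of genes called in each. Leaving out each library in turn gave 3 to 11 falls, 0 to 3 in the core and 2 to 6 in the regulatory particle. Over all genes it gave 1783 to 2885 falls. With library totals only, log2 fold changes became 0.0143 for Psmb1, 0.0285 for Psmb6, 0.0344 for Psmb10, 0.0367 for Psmc1, 0.0117 for Psmc2, 0.0363 for Psmd4 and 0.0344 for Psmd6. Without 1 library they ran from −0.0259 to 0.0589 for Psma2, −0.142 to 0.0302 for Psmb1, −0.0893 to 0.0172 for Psmb10, −0.0784 to 0.0162 for Psmc1, −0.136 to 0.0157 for Psmc2, −0.0182 to 0.0854 for Psmc6 and −0.0835 to 0.0144 for Psmd6. The Psmb8 to Psmb5 difference ran from −0.0441 to 0.148 in that way, and the Psmb10 to Psmb7 difference from 0.0342 to 0.205. With the replicate block, the ratio differences were 0.06 and 0.11 (exact p = 0.5 and 0.25, where 0.25 is the smallest that 3 pairs allow), and Psme2, Psmc4 and Psmd3 passed, with no other call among the 40 genes changed.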
